A study of Arabidopsis thaliana with 9 samples.

Results

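SCL3 (AT1G50420) and a pair of genes known as early transcriptional targets of DELLA proteins, XERICO (AT2G04240) and AT2G31730, were followed in RNA from whole Arabidopsis thaliana roots, taken 7 days after the seeds had germinated. The genes were chosen by name, each with 1 probe set of the Affymetrix ATH1 array, which hybridises labelled RNA to short probes. They are 3 of 22746 probe sets measured, and all 3 passed the filter on dim signal that left 14117 probe sets for testing. The assignment of a probe set to SCL3 came with the choice of genes, since the probe table used for all other names leaves that probe set unnamed.

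There were 3 groups of 3 biological replicates, 1 array each. All plants carried ga1-3, a mutation of the gibberellin (GA) synthesis gene GA1, so each group, the ga1-3 controls included, lacked normal GA supply. The groups were ga1-3 labelled as overexpressing SCL3 (ga1-3 SCL3OE), ga1-3 with the loss-of-function mutation scl3-1 (ga1-3 scl3-1), and ga1-3 alone. A wild type with normal GA supply was not analysed here. The labels name neither the promoter that drives the SCL3 transgene nor the number of independent lines. Seedlings had grown on MS medium at 22 °C under 16 h light and 8 h dark.

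DELLA proteins are nuclear GRAS-family regulators that restrain GA responses. GA binds the GID1 receptors, which then recruit DELLAs to the F-box protein SLY1 for degradation, so that a GA-deficient plant such as ga1-3 accumulates DELLAs. DELLAs in turn raise transcripts that act back on the pathway, among them those of GA receptors, GA synthesis enzymes and SCL3. SCL3 is itself a GRAS protein without the DELLA domain. It opposes DELLA action in the root endodermis, and its gene is activated by DELLAs through INDETERMINATE DOMAIN (IDD) zinc finger proteins. XERICO encodes a small RING-H2 zinc finger protein that promotes accumulation of abscisic acid (ABA). AT2G31730 encodes a protein of the basic helix-loop-helix (bHLH) family.

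The 3 arrays labelled ga1-3 SCL3OE stood apart from the other 6. Across the 14117 tested probe sets, Pearson's r was 0.929 to 0.945 between these arrays and the others, against 0.989 to 0.990 among themselves and 0.978 to 0.987 among the ga1-3 arrays. Median signals were 183 to 185 on ga1-3 SCL3OE arrays, 195 to 204 on ga1-3 scl3-1 arrays and 190 to 201 on ga1-3 arrays. Each change below is a difference of mean log2 signal from one limma fit over all 9 arrays, with its standard error (SE), a 95% interval and an adjusted p (Benjamini-Hochberg over the 14117 probe sets). Below, a gene is called where that adjusted p is under 0.05. Of all tested probe sets, 0.368% were called higher and 0.170% lower in scl3-1 against ga1-3.

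SCL3, the gene manipulated in both lines, was tested first. Its signal was 1241, 1344 and 1177 on the 3 ga1-3 SCL3OE arrays. It was 28.6, 8.48 and 30.6 on the 3 ga1-3 scl3-1 arrays. On the 3 ga1-3 arrays it was 1171, 1383 and 1128. The ga1-3 scl3-1 arrays thus lay far below all others, whereas the values of ga1-3 SCL3OE and ga1-3 interleaved. On the scale of a whole array, SCL3 stood between the 86.9th and 88.6th percentile of signal in ga1-3 SCL3OE, between the 12.6th and 26.1st percentile in ga1-3 scl3-1, and between the 85.5th and 88.6th percentile in ga1-3.

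**Figure D1:**
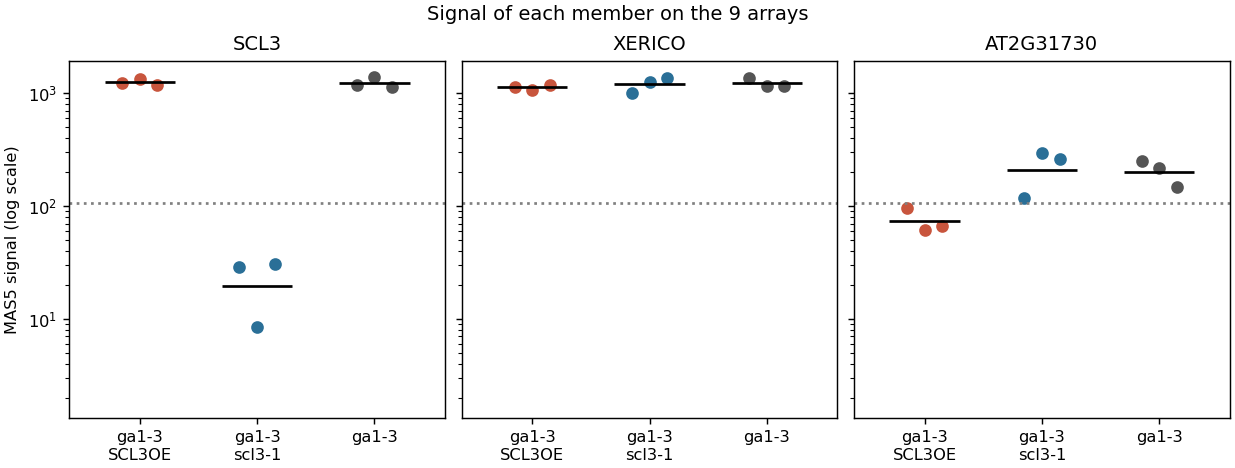
MAS5 signal of SCL3, XERICO and AT2G31730 on each array (points, log axis) in the 3 groups, with the mean of the log2 values as a bar and the mean signal at the filter level (105.9) dotted. SCL3 is between 1177 and 1344 in ga1-3 SCL3OE, at most 30.6 in ga1-3 scl3-1 and between 1128 and 1383 in ga1-3, XERICO lies between 1012 and 1366 throughout, and AT2G31730 is below 100 in ga1-3 SCL3OE alone.

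In scl3-1 roots, SCL3 averaged 22.6 ± 12.2, against 1228 ± 136 in ga1-3 roots (SD, n = 3 each). The ga1-3 scl3-1 values did not overlap those of ga1-3, as for 6.68% of probe sets that were lower. The log2 change was -5.97 (SE 0.33, interval -6.67 to -5.27, limma adjusted p = 1.18e-07), the lowest of all 14117 tested probe sets. All 3 scl3-1 values lay below the 40th percentile of their own array, the filter level, and the table holds no detection calls. The size of the fall is therefore a bound rather than a measurement. With each scl3-1 value raised to that percentile of its array, SCL3 was 11.2-fold lower in scl3-1 by mean log2 signal, a bound given without an interval. With 50 signal units added before log2 the change was -4.15, and without scl3-1 replicate 2, where SCL3 was dimmest, it was -5.37. SCL3 was the only one of the 3 genes called in this comparison, where 0.538% of probe sets were called in either direction, 76 in all.

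In the roots labelled ga1-3 SCL3OE, SCL3 averaged 1254 ± 84.4, against the same 1228 ± 136 in ga1-3 (SD, n = 3 each). The log2 change was 0.03 (SE 0.33, interval -0.66 to 0.73, limma adjusted p = 0.943). The interval reaches a 1.66-fold rise, and its width includes the large log2 spread of the dim scl3-1 arrays (SD 1.04, against 0.10 in ga1-3 SCL3OE and 0.16 in ga1-3). With only the 6 arrays of ga1-3 SCL3OE and ga1-3 in the fit, the SE was 0.10 and the interval -0.19 to 0.26, up to a 1.19-fold rise. The arrays labelled SCL3OE thus showed no rise of SCL3 signal beyond that bound, which goes against the label as read by this probe set. The brightest signal of any probe set on these arrays was 31860. At what signal the SCL3 probe set itself saturates was not tested. Which stretch of the SCL3 transcript the probe set reads, and whether a transgene transcript would carry it, is not given in the sources used here, so absence of overexpression was not shown. Directions drawn from ga1-3 SCL3OE below are those of the arrays so labelled.

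The same arrays differed sharply from scl3-1. SCL3 was higher in ga1-3 SCL3OE than in ga1-3 scl3-1 by 6.004 on the log2 scale (SE 0.33, limma adjusted p = 5.15e-09). The difference was 4.18 with 50 units added before log2. With scl3-1 at the filter level it was 11.5-fold by mean log2 signal, again without an interval. The order of SCL3 levels was therefore ga1-3 SCL3OE and ga1-3 together, which did not differ beyond their spread, and scl3-1 far below.

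**Figure D2:**
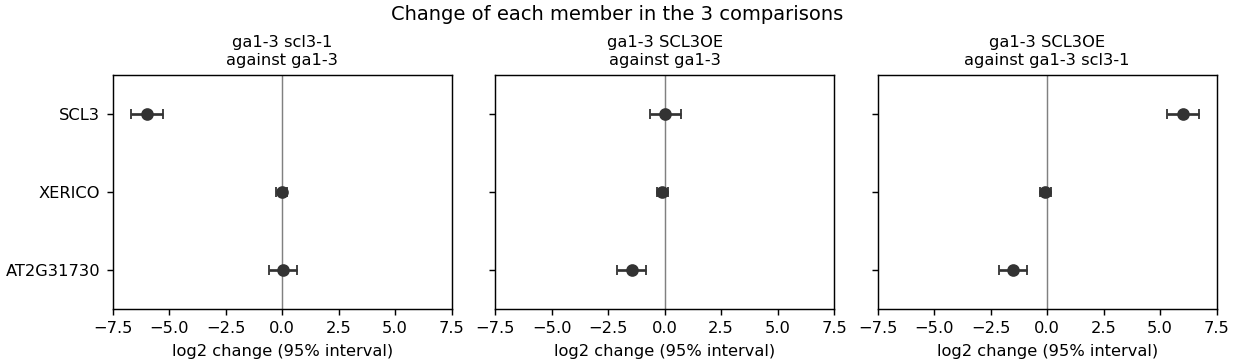
Log2 change of SCL3, XERICO and AT2G31730 in each of the 3 comparisons, with 95% intervals from limma over 9 arrays. SCL3 is at -5.97, 0.03 and 6.004 from left to right, XERICO is near 0 in each, and AT2G31730 is near 0 in scl3-1 against ga1-3 and at -1.46 and -1.51 in the comparisons with SCL3OE.

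XERICO, the RING-H2 gene linked to ABA, passed the test in none of the 3 comparisons. Its signal was 1135, 1077 and 1179 in ga1-3 SCL3OE. It was 1012, 1267 and 1366 in ga1-3 scl3-1 and 1354, 1157.5 and 1161 in ga1-3. The lowest and the highest of the 9 values were both scl3-1 arrays, and the 3 groups overlapped. Group means were 1130 ± 51.2 in ga1-3 SCL3OE, 1215 ± 183 in ga1-3 scl3-1 and 1224 ± 112 in ga1-3 (SD, n = 3 each).

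The log2 change of XERICO was -0.02 in scl3-1 against ga1-3 (interval -0.26 to 0.23, limma adjusted p = 0.981). It was -0.11 in ga1-3 SCL3OE against ga1-3 (interval -0.36 to 0.13, limma adjusted p = 0.453). In ga1-3 SCL3OE against scl3-1 it was -0.09 (interval -0.34 to 0.15, limma adjusted p = 0.55). These intervals exclude a fall to below 0.782 of the ga1-3 level and a rise above 1.17-fold in either line. No order of the 3 groups held beyond the spread of replicates.

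AT2G31730, the bHLH gene, was lower on the arrays labelled ga1-3 SCL3OE and not in scl3-1. Its signal was 96.1, 61.3 and 66.2 in ga1-3 SCL3OE. It was 118, 294 and 259 in ga1-3 scl3-1 and 252, 218 and 148 in ga1-3. All 3 SCL3OE values lay below the other 6, while scl3-1 and ga1-3 overlapped, with scl3-1 replicate 1 the lowest of those 6 and scl3-1 replicate 2 the highest. Group means were 74.5 ± 18.8 in ga1-3 SCL3OE, 224 ± 93.3 in ga1-3 scl3-1 and 206 ± 53.0 in ga1-3 (SD, n = 3 each).

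Against ga1-3, AT2G31730 fell by 1.46 on the log2 scale in ga1-3 SCL3OE (SE 0.29, interval -2.09 to -0.83, limma adjusted p = 0.000971), which is 2.75-fold lower. Against scl3-1 the change was -1.51 (SE 0.29, limma adjusted p = 0.000886). In scl3-1 against ga1-3 it was 0.05 (SE 0.29, interval -0.58 to 0.67, limma adjusted p = 0.981), an interval that runs from 0.668 to 1.60 of the ga1-3 level. The SCL3OE values lay under the 40th percentile of their arrays, between the 32.0th and 39.3rd percentile. With them at the filter level, mean log2 signal put AT2G31730 1.95-fold lower than in ga1-3 and 2.01-fold lower than in scl3-1. These are point values without an interval, and the interval above against ga1-3 ends at 0.561 of the ga1-3 level. With 50 units added before log2 the change against ga1-3 was -1.03. It was called whichever single array was left out, with changes of -1.68 to -1.30 against ga1-3.

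The fall of AT2G31730 stood within a broad difference of these arrays. In ga1-3 SCL3OE against ga1-3, 43.8% of probe sets were called in either direction, 25.9% as lower and 18.0% as higher, and the 3 arrays of one group all lay below the 3 of the other for 31.5%. Of the 3 genes, AT2G31730 alone was called in this comparison, a share near that background. On the deposited signal its size was less common: 176 of 14117 probe sets fell by as much or more. That rank rests on SCL3OE values under the filter level, and with them at that level the change was -0.96. The same limit holds for the rank against scl3-1 given next. In ga1-3 SCL3OE against scl3-1, where SCL3 and AT2G31730 were called, the share of called probe sets was 39.2% (15.5% higher and 23.6% lower, with the arrays of SCL3OE all below for 31.5%), and AT2G31730 ranked 180th among falls. Of called probe sets, 41.0% were higher in ga1-3 SCL3OE against ga1-3 and 39.6% against scl3-1. With median-centred arrays these shares were 53.4% and 59.0%, while AT2G31730 changed by -1.38 and -1.39 on the log2 scale. In whole roots, fewer cells of a type and less RNA per cell cannot be told apart.

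**Figure D3:**
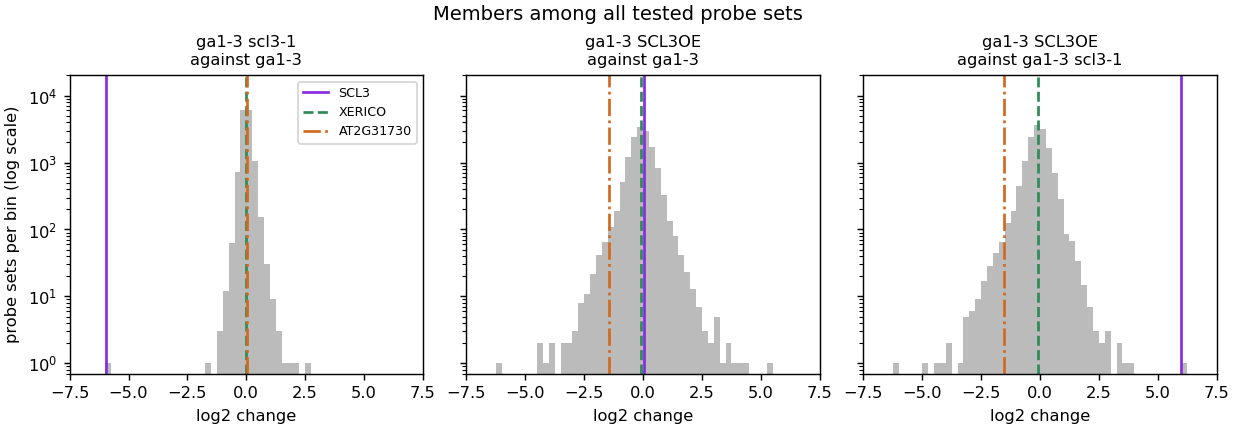
Number of tested probe sets by log2 change (grey bars of width 0.25, log axis) in the 3 comparisons, with SCL3 (solid), XERICO (dashed) and AT2G31730 (dash-dotted) marked. SCL3 lies at the lowest end in scl3-1 against ga1-3, XERICO near the middle of each distribution, and AT2G31730 in the lower tail of the wider distributions of SCL3OE.

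Markers of tissue were read beside these results. Of 12 root genes listed, 5 were on named probe sets. XTH26 averaged 24.8 in ga1-3 SCL3OE, below the mean filter level of 105.9. Their summed signal was 21081 to 24927 in ga1-3 SCL3OE, 15030 to 17339 in ga1-3 scl3-1 and 14890 to 16018 in ga1-3. PYK10, a root beta-glucosidase gene, made up most of the sum and rose in ga1-3 SCL3OE against ga1-3 (0.85, SE 0.10, or 0.21 after quantile normalization), whereas the root hair genes XTH26 (-3.94, SE 0.24, or -2.46 with 50 units added before log2), EXPA18 (-0.91, SE 0.09) and EXPA7 (-0.37, SE 0.12) and the cortex marker AT1G62500 (-0.63, SE 0.20) fell. EXPA7 did not pass after quantile normalization (limma adjusted p = 0.103), nor without ga1-3 replicate 1 (0.0941), SCL3OE replicate 1 (0.0689) or SCL3OE replicate 2 (0.0557), and AT1G62500 not without ga1-3 replicate 1 (0.08) or SCL3OE replicate 2 (0.0751). Of 12 leaf photosynthesis genes 3 were on named probe sets, with sums of 1889 to 2005 in ga1-3 SCL3OE, 2027 to 2317 in ga1-3 scl3-1 and 1836 to 1976 in ga1-3. PRK, in these sums, averaged below the mean filter level in each group. In ga1-3 SCL3OE against ga1-3, LHCB4.1, of the light-harvesting antenna, fell (-0.51, SE 0.12), and RCA, of Rubisco activase, rose (0.32, SE 0.10). RCA did not pass when any 1 SCL3OE array or ga1-3 replicate 1 was left out (limma adjusted p = 0.0515 to 0.063). The part of these marker shifts in the fall of AT2G31730 was not tested.

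Of 16 genes listed as early DELLA targets, the 3 described here included, 7 were measured and 5 passed the filter. Here and below, a listed gene counts as measured if it had a named probe set or, for SCL3, the assigned one. In scl3-1 against ga1-3, SCL3 fell and the other 4 did not pass. On the SCL3OE arrays, against ga1-3, 3 fell, 0 rose and 2 did not pass, where 43.8% of all tested probe sets were called and 25.9% were called lower. The median was -0.61 beside -0.07 over all tested probe sets. The other fallers were the GA receptor genes GID1A and GID1B. GID1A had signals of 695, 611 and 585 in ga1-3 SCL3OE, against 967, 1011 and 908 in ga1-3, a log2 change of -0.61 (SE 0.11, limma adjusted p = 0.000463). GID1B had 710, 753 and 694 in ga1-3 SCL3OE, against 1007, 1207 and 1226 in ga1-3 (-0.67, SE 0.11). For both genes the SCL3OE arrays all lay below those of ga1-3, as for 31.5% of all tested probe sets. The calmodulin-binding family gene IQD22 and the gene AT5G50915 were too dim to test, with group means of 32.5 to 39.0 and 9.47 to 30.1.

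The pattern of AT2G31730 over the 9 arrays was most like those of AT2G28660, AT3G09020, GID1A, AT4G36430 and AT4G22580, with Pearson's r of 0.988, 0.977, 0.969, 0.965 and 0.961. These were the 5 highest among 2250 named probe sets whose group means spanned at least 0.5 on the log2 scale. The likeness was not only that of group means: for deviations from the group means, r was 0.874 to 0.958. With GID1A, scl3-1 replicate 1 was the lowest of the scl3-1 arrays for both genes (118 and 862). For both, ga1-3 replicate 3 was the lowest of the ga1-3 arrays (148 and 908). SCL3OE replicate 1 was the highest of the SCL3OE arrays for both (96.1 and 695). The opposite end of each group did not match. The highest ga1-3 array was replicate 1 for AT2G31730 (252) and replicate 2 for GID1A (1011). In scl3-1 the highest was replicate 2 for AT2G31730 (294) and replicate 3 for GID1A (1092). In SCL3OE the lowest was replicate 2 for AT2G31730 (61.3) and replicate 3 for GID1A (585). All these values come from the same 9 arrays, and the genes were picked as the extremes of many, so r is a description.

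**Figure D4:**
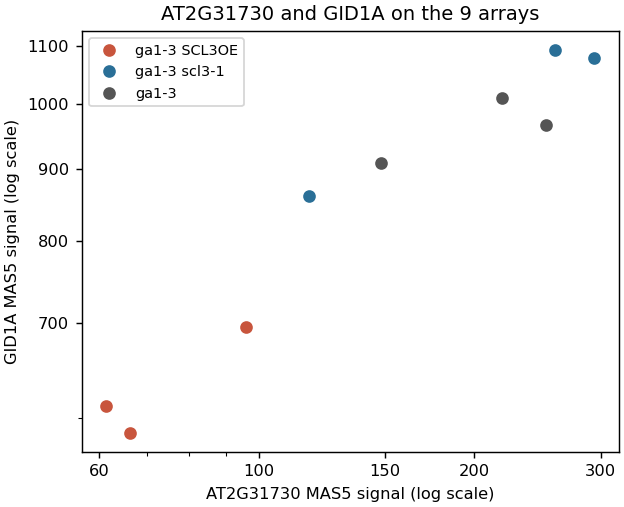
Signal of GID1A against that of AT2G31730 on each of the 9 arrays (both axes log), coloured by group. The 3 SCL3OE arrays are at the lower left, and scl3-1 replicate 1 (118 and 862) lies apart from the other scl3-1 arrays.

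SCL3 and XERICO had looser matches. For SCL3 the highest r were 0.961 with AT5G51500, 0.882 with AT3G15450, 0.864 with AT3G61390, 0.842 with AT1G68440 and 0.826 with AT1G09820. AT5G51500 averaged 327 in ga1-3 SCL3OE, 215 in ga1-3 scl3-1 and 322 in ga1-3, a far smaller difference than that of SCL3. Its deviations from group means had an r of -0.02 with those of SCL3, so only the group pattern was shared. Among the other matches of SCL3 that r was 0.78 for AT3G61390, 0.21 for AT3G15450, 0.09 for AT1G09820 and 0.04 for AT1G68440. XERICO was most like AT1G48200 (r of 0.900), AT1G76590 (0.865), AT4G31270 (0.859), AT4G10790 (0.848) and AT3G26510 (0.832). There the deviations from group means gave r of 0.856 to 0.974. XERICO varied more between replicates than between groups, so picking genes on r largely picked them on these deviations. These r are therefore a description too.

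The wider pathway was read from listed genes. None of 21 GA synthesis and inactivation genes and none of 10 ABA synthesis and inactivation genes was on a named probe set. Of 12 genes of GA perception and DELLA control, 7 were tested. In scl3-1 against ga1-3 none was called, with a median of 0.02 beside 0.01 over all probe sets. With SCL3OE set against ga1-3, 5 fell, 0 rose and 2 did not pass (43.8% of all probe sets called, 25.9% lower), with a median of -0.39 beside -0.07. After quantile normalization 4 of the 7 were called. Beside GID1A and GID1B, the 5 that fell on the deposited scaling were the F-box genes SLY2 and SLY1 and SPY, an O-fucosyltransferase gene. SLY2 averaged 64.1 ± 15.2 in ga1-3 SCL3OE and 153 ± 19.8 in ga1-3 (SD, n = 3 each), a change of -1.27 (SE 0.20), or -0.83 with 50 units added before log2. SLY1 changed by -0.39 (SE 0.09) and SPY by -0.38 (SE 0.13). SPY did not pass after quantile normalization (limma adjusted p = 0.135) or median-centring (0.06), nor without ga1-3 replicate 3 (0.0942), SCL3OE replicate 1 (0.0828) or SCL3OE replicate 2 (0.0668). The receptor gene GID1C (-0.03, SE 0.17) and the O-GlcNAc transferase gene SEC (-0.11, SE 0.16) did not pass. Against scl3-1, 4 of the 7 fell, SPY not among them (-0.33, SE 0.13, limma adjusted p = 0.0535). There 39.2% of all probe sets were called, 23.6% as lower.

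Few genes of the root module in which SCL3 acts were on named probe sets. SHR and SCR, GRAS regulators of ground tissue, and IDD genes made a list of 11, of which 2 were tested. In scl3-1 against ga1-3 neither was called. In ga1-3 SCL3OE against ga1-3 both were called lower, as were 25.9% of all probe sets, but SCL23 had passed the filter only through the ga1-3 arrays, where it was highest. JKD, an IDD zinc finger gene of ground tissue patterning, had 83.5, 54.1 and 82.0 in ga1-3 SCL3OE, against 154, 179 and 175 in ga1-3 (-1.23, SE 0.18, limma adjusted p = 6.92e-05), or -0.84 with 50 units added before log2. SCL23, the closest relative of SCR, had 74.8, 85.8 and 71.4 in ga1-3 SCL3OE, against 112, 125 and 131 in ga1-3. Its change of -0.67 (SE 0.17), or -0.44 with 50 units added before log2, is given as a description, since it dropped out of the test when any 1 ga1-3 array was left out.

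Of 22 other GRAS family genes listed, 12 were measured and 7 tested. None was called in scl3-1 against ga1-3, where their median was -0.03. In ga1-3 SCL3OE against ga1-3, 3 fell, 0 rose and 4 did not pass, with a median of -0.37 beside -0.07. The share called was thus close to the 43.8% of all probe sets. SCL21 averaged 212 ± 15.4 in ga1-3 SCL3OE and 289 ± 14.7 in ga1-3 (SD, n = 3 each), a change of -0.45 (SE 0.12, limma adjusted p = 0.00691). AT5G59450 changed by -0.37 (SE 0.10) and AT3G46600 by -0.39 (SE 0.12). After quantile normalization neither of these passed (limma adjusted p = 0.09 and 0.0942). AT3G46600 also missed it with median-centred arrays (0.0561) and without ga1-3 replicate 3 (0.0963), SCL3OE replicate 1 (0.0575) or SCL3OE replicate 2 (0.052). The largest rise that did not pass was that of AT1G63100 (0.37, SE 0.21, limma adjusted p = 0.176). It passed without ga1-3 replicate 3 (0.61, limma adjusted p = 0.0293) and in ga1-3 SCL3OE against scl3-1 (0.62, SE 0.21, limma adjusted p = 0.0309), where AT5G59450 fell (-0.46, SE 0.10) and the other 5 did not pass. In SCL3OE against scl3-1, 15.5% of all probe sets were called higher and 23.6% lower.

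**Figure D5:**
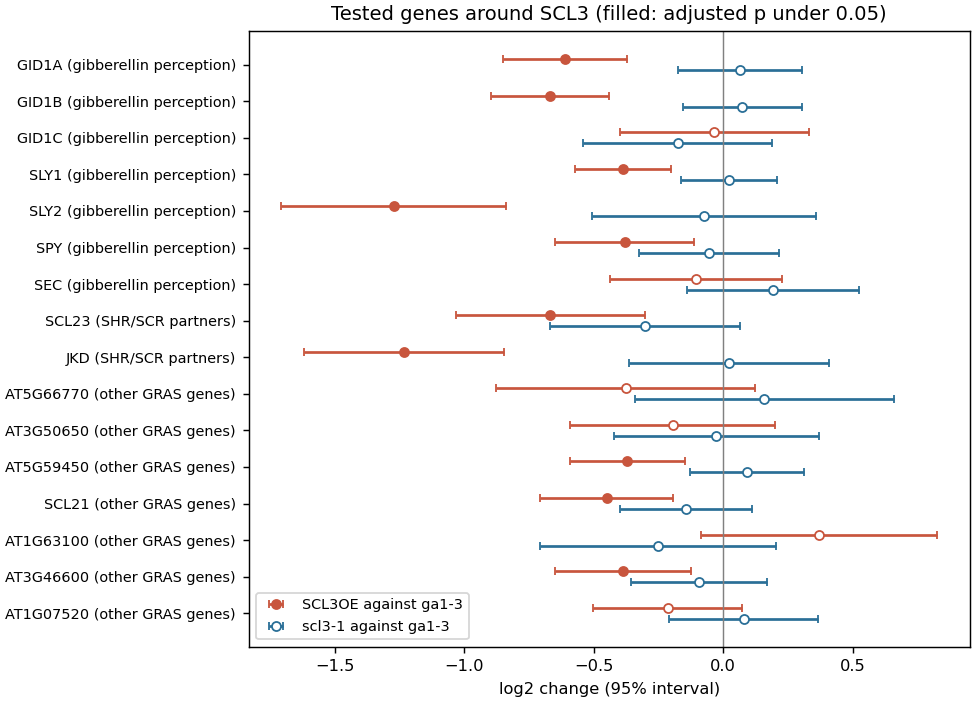
Log2 change, with 95% limma intervals, of the 16 tested genes of GA perception, the SHR and SCR module and other GRAS genes in SCL3OE against ga1-3 (red) and scl3-1 against ga1-3 (blue). Filled points were called: 10 in SCL3OE, all lower, where 25.9% of all probe sets were called lower, and 0 in scl3-1, where 0.538% were called. SCL23, among the filled points, passed the filter only through the ga1-3 arrays and is shown as a description.

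Of 9 listed ABA response genes, only the dehydrin gene LTI30 was on a named probe set. It averaged 12718 ± 1276 in ga1-3 SCL3OE, 6608 ± 1000 in ga1-3 scl3-1 and 6389 ± 349 in ga1-3 (SD, n = 3 each). LTI30 rose in ga1-3 SCL3OE against ga1-3 (0.99, SE 0.11, limma adjusted p = 5.62e-06, or 0.44 after quantile normalization), where 18.0% of all probe sets were called higher. It did not pass in scl3-1 against ga1-3 (0.04, SE 0.11).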

How the data were processed

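The values the authors deposited are linear signal intensities from MAS5, with Affymetrix Expression Console 1.1 named per the submitters' processing notes. The 2% trimmed mean was 496 to 497 on all 9 arrays. The deposited scaling was kept and log2 taken. Probe sets were tested where 3 or more arrays reached that array's 40th percentile of signal, in R 4.3.3 with limma 3.58.1, as group means over 9 arrays with eBayes and a mean-variance trend, two-sided. The number of arrays limits the precision.

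Names came from a probe table (14016 probe sets listed, 13513 with 1 gene, 503 with several, 8730 of the 22746 unnamed here) and a TAIR10.1 gene table, which gave 13436 of the 13513 a locus. A gene with several probe sets was read from the one with the highest mean. Of 121 listed genes 36 were measured, SCL3 included. By rule the text names the 3 genes, the 5 best matches of pattern to each and, per list, up to 4 genes with the smallest p in SCL3OE against ga1-3 (all measured for early DELLA targets and GA perception), and 1 further root marker was named after its values were seen. Members, lists and tests were chosen with earlier results of these data known. Alternatives were no filter, quantile normalization, median-centring, an offset of 50, no trend, a replicate block, only the 6 arrays compared and each array left out; for list genes these were chosen after seeing the data.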

Additional observations from a re-analysis of the deposited data

How the results depend on the processing

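The call of SCL3 in scl3-1 against ga1-3 and those of SCL3 and AT2G31730 in the comparisons named above kept their direction and side of the threshold in all 16 alternatives run (7 settings and 9 single arrays left out). The size of SCL3 in scl3-1 against ga1-3 ranged from -6.01 to -4.15 over the settings and from -6.30 to -5.37 with single arrays left out. AT2G31730 in SCL3OE against ga1-3 ranged from -1.49 to -1.03 over the settings. XERICO passed in none of them. Values that did not pass changed sign in some: with single arrays left out XERICO ran from -0.11 to 0.11 and AT2G31730 from -0.20 to 0.46 in scl3-1 against ga1-3, SCL3 from -0.0236 to 0.12, GID1C from -0.18 to 0.13 and SEC from -0.24 to 0.0508 in SCL3OE against ga1-3. After quantile normalization GID1C was at 0.0365 and SEC at 0.0267. With median-centred arrays GID1C was at 0.0483 and XERICO at 0.0265 in SCL3OE against scl3-1, where the median of all probe sets moved to 0.06, against -0.07 as deposited. The count of called probe sets in scl3-1 against ga1-3, 76, was 36 with no filter, 20 without trend and 30 with only the 6 arrays compared. It was 148, 5 and 15 without ga1-3 replicates 1, 2 and 3, 23 and 3 without scl3-1 replicates 1 and 2, and 48 and 39 without SCL3OE replicates 1 and 3, so its range was 3 to 148. With the replicate block it was 73, and 6175 and 5486 in the comparisons of SCL3OE with ga1-3 and scl3-1, and the block changed no call of the 3 genes (AT2G31730 -1.46, limma adjusted p = 0.0019). Deviations of same-numbered arrays correlated at -0.19 to 0.18, and 7 of 18 comparisons had the best match at the same number, so the numbers were not taken as pairs. Dim signal limits the sizes of SCL3 in scl3-1 and of AT2G31730 in SCL3OE. The same holds for XTH26, SLY2, JKD and SCL23 in SCL3OE. They averaged 24.8, 64.1, 73.2 and 77.3 there, under the mean filter level of 105.9.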
